A study of Mus musculus with 4 samples.

Results

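Gene-end regions are stretches of accessible chromatin that lie where transcripts finish. They were taken as the regions of chromosomes 1 to 19 and X whose deposited annotation begins with TTS (a transcription termination site) or with 3' UTR, the untranslated end of a messenger RNA. Of 29121 merged regions, 561 (1.93%) met this rule, 386 at a TTS and 175 in a 3' UTR. The rule used position only and no measured count. All 561 regions have a peak in every library, so a gene end without a peak in some library is not among them. Each region was named after the gene whose transcript the annotation cites, and 557 of the 561 citations were found in a RefSeq table of the mouse assembly GRCm38.p6. The 557 comprised 490 regions at protein-coding genes, 39 at long non-coding RNA genes, 25 at microRNA genes and 3 at other genes.

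Transcription by RNA polymerase II ends in steps. The nascent RNA is cleaved and polyadenylated at the end of the 3' UTR, and the polymerase runs on before it leaves the template. Chromatin at gene ends is usually less open than at start sites, but an end can hold an enhancer, the promoter of a neighbouring gene or the start of an antisense or non-coding RNA. ATAC-seq, the assay used here, maps open chromatin by the places where the Tn5 transposase can cut and insert adapters. It does not measure RNA, polyadenylation or where the polymerase stops.

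The libraries came from hippocampal neurospheres of P0 C57BL/6 mice, which are cultures of neural progenitor cells that grow as free spheres. Per the labels, cells of a single mouse filled 2 wells with FGF-2 and EGF at 20 ng/ml each, and were harvested after 7 days. The 2 control libraries are hGFAPCre+, Fgf13+/y and the 2 Fgf13cko libraries are hGFAPCre+, Fgf13 flox/y, so all 4 carried the Cre transgene and had a single copy of the X-linked gene. The human GFAP promoter drives Cre in radial glia, their progeny and astrocytes, so any cell outside that lineage would keep the floxed gene. The design asks whether loss of Fgf13, whose product stays inside the cell and acts on sodium channels and on microtubules, goes with a change in accessibility. Nothing in the labels tells whether 1 mouse or several gave the libraries of a group. The p-values therefore reflect only how far these libraries vary, part of which may be technical.

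The series' design could be checked in part only. No gene-end region lay at Fgf13, and 0 of 4 tested regions nearest to its start sites passed the test (log2 fold changes -0.53 to 0.83). The labels do not name the floxed exon, so these regions do not check the genotype. At promoters, a region was present for 22 of 29 neural stem cell and radial glia genes, 17 of 20 intermediate progenitor genes, 14 of 20 astrocyte genes, 12 of 18 immature neuron genes, 14 of 22 synaptic and mature neuron genes, 10 of 18 GABAergic genes and 8 of 18 oligodendrocyte genes. The same was so for 5 of 14 ependymal and choroid plexus genes, 1 of 15 microglial and macrophage genes, 4 of 14 endothelial and pericyte genes and 4 of 14 meningeal fibroblast genes. Nuclear regions held 2.55 to 3.25 M tags per library. Mitochondrial tags made up 67.7% and 68.4% of what the regions held in control 1 and 2 and 38.5% and 31.5% in Fgf13cko 1 and 2, and the part of this gap in the results below was not tested.

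MicroRNA genes were the end genes of 25 gene-end regions. RefSeq (GRCm38.p6) gave 34 mature sequences for 24 of these genes. They had 34 distinct seeds (bases 2 to 8, which pair with target messages), and 0 seeds were shared between genes. The first sequence below is of the microRNA gene whose end region passed the test. The next 3 are microRNAs of known neural or broad expression whose end regions did not pass. The last 2 are at the microRNA ends with the highest normalised counts. The seed is in capitals.
mmu-miR-1936, chr12:102684943-102684965, minus strand: uAACUGACcugcugugaacuggc
mmu-miR-128-3p, chr9:112118644-112118664, minus strand: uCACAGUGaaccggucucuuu
mmu-miR-9-5p, chr13:83738821-83738843, plus strand: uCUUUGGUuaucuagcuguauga
mmu-miR-148b-3p, chr15:103285185-103285206, plus strand: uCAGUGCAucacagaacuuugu
mmu-miR-5130, chr14:102982608-102982631, minus strand: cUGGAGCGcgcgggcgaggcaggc
mmu-miR-1945, chr16:11254381-11254402, minus strand: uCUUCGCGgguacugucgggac

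Other gene ends hold the start of a neighbouring gene. The RefSeq promoter windows (250 bases before to 50 after a start) of 60 genes, 66 windows in all, lay wholly inside 56 gene-end regions. Motifs were sought only in the 250 bases before the start. A CCAAT box (CCAAT, either strand) was found there in 31.8% of these windows and in 33.8% of all 32851 RefSeq promoter windows, and an ETS site (CCGGAAG, either strand) in 13.6% and 6.91%. The AP-1 site (TGANTCA) was found in 1.52% and 6.75%, the cAMP response element (TGACGTCA) in 1.52% and 1.55%, and the NRF1 site in 1.52% and 0.782%. In each of these 3 cases the former share is 1 of 66 windows, and for the ETS site it is 9 of 66. The 66 windows lie in regions with a peak in every library, while the 32851 were taken whatever their accessibility. The 2 sets are therefore unlike, and no difference between the shares was tested. No motif word holds another, and a match describes letters, not a bound site. Stretches of 30 bases from 2 such promoters show how a start sits within an end. The promoter of Slbp, which encodes the histone mRNA stem-loop binding protein, lies in the region at the end of Tmem129, and that of Mtg2, a mitochondrial ribosome GTPase gene, lies in the region at the end of Ss18l1. Capitals mark the first motif match, a CCAAT box for Slbp and an ETS site on the opposite strand for Mtg2.
Slbp promoter, chr5:33652665-33652694, minus strand: ggcgcgcactgcCCAATctcccgccaatat
Mtg2 promoter, chr2:180070536-180070565, plus strand: cggtgcctcgcCTTCCGGtttgctgctgca

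Relative to the end of their gene, the median TTS and 3' UTR regions sat on opposite sides. The annotation assigns both classes by position, so these places describe the classes and are not a finding. Of 314 TTS regions with an annotated gene strand, 286 had their centre between -100 and 1000 bp of the gene's outer end, with a median of 492 bp past it. The 135 3' UTR regions with a strand were centred at a median of -1246 bp, inside the gene. Widths ran from 253 to 3249 bp with a median of 761 bp, against 830 bp for all regions. A second protein-coding gene overlapped 173 of the 561 regions (30.8%). The nearest start site was that of the end gene itself for 248 regions and that of another gene for 309. Protein-coding end genes had a median length of 19.8 kb (n = 486), and the RefSeq protein-coding genes as a whole had 17.1 kb (n = 21900).

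Gene ends had a lower median accessibility than start sites. Counts were scaled to a common effective library size (normalised tags), and divided by width they had medians of 73.2 and 67.6 normalised tags per kb at gene ends in control 1 and 2 and 66.8 and 81.5 in Fgf13cko 1 and 2. Promoter regions had 111, 114, 109 and 104 in the same order, intronic regions 66.2, 63.8, 64.3 and 75.9, and intergenic regions 62.9, 58.8, 55.7 and 71.7. In all 4 libraries the median over both gene-end classes was therefore below that of promoters and above that of introns. Exonic regions had 73.0, 72.0, 75.8 and 73.5, above gene ends in control 2 and Fgf13cko 1 and below them in control 1 and Fgf13cko 2. TTS regions had 76.5, 73.3, 72.8 and 82.5 and 3' UTR regions 63.9, 58.5, 55.5 and 76.3, so the TTS median was the higher of the pair in each library. The 3' UTR median alone was below that of introns in control 1, control 2 and Fgf13cko 1, and just above it in Fgf13cko 2. All 561 regions had a peak in each of the 4 deposited peak lists, as the table requires. The authors' fold enrichment, taken from the highest peak in each gene-end region, had medians of 4.56, 4.73, 5.03 and 4.69 in the same library order. Over every single peak of each library the medians were 4.41, 4.14, 4.11 and 4.19. These sets are unlike, since many single peaks have no partner in the other libraries, so the values do not show that gene ends are more enriched. The share of nuclear tags that fell in gene ends was 1.47% ± 0.0160 (SD, n = 2) in controls and 1.51% ± 0.103 in Fgf13cko, a difference that did not pass the two-sided exact permutation test (p = 1, where 0.333 is the smallest this design allows).

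The library Fgf13cko 1 stood apart from the other 3 by region width. In gene-end regions up to 400 bp wide (n = 20) its normalised count was lower than that of Fgf13cko 2 by a median of 1.99 on the log2 scale (log2 ratio -1.99). In wider regions up to 600 bp (n = 119) the median log2 ratio was -1.03, in those above that and up to 800 bp (n = 171) -0.29, in those up to 1200 bp (n = 173) 0.19 and in those over 1200 bp (n = 74) 0.30. The controls, set against each other, had 0.55, 0.05, 0.04, 0.02 and -0.03 in the same classes, and Fgf13cko 2 against the mean of the controls had 0.05, 0.06, 0.07, 0.12 and 0.02. At gene ends the ratios that involve Fgf13cko 1 thus had the widest range over these classes. Over all nuclear regions, Fgf13cko 1 against Fgf13cko 2 went from -2.09 in the narrowest class to 0.36 in the widest. There control 1 against control 2 also fell with width, from 0.41 to -0.04, and Fgf13cko 2 against the controls went from 0.08 to -0.07. Width is not independent of the counts, since each region is the union of the peaks of all 4 libraries. The widest peak, ties included, was in Fgf13cko 1 in 225 of the 561 gene-end regions, Fgf13cko 2 in 185, control 2 in 118 and control 1 in 40. The median peak width at gene ends was 616 and 602 bp in Fgf13cko 1 and 2 and 460 and 531 bp in control 1 and 2. Peaks were thus wider in both Fgf13cko libraries, so region width is not independent of group either. The cause of the width dependence was not tested.

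**Figure D1:**
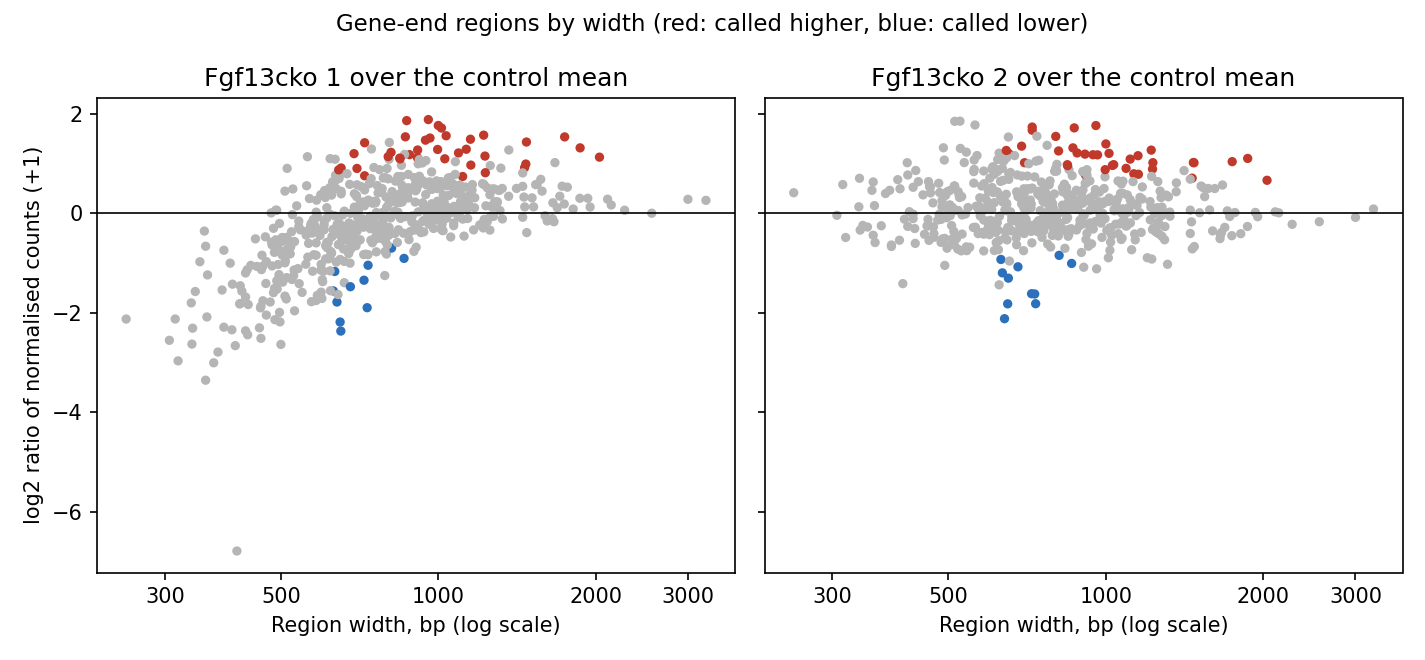
Log2 ratio of normalised tags (1 added to each) to the mean of the controls (vertical axis) against region width in bp (horizontal log axis) for Fgf13cko 1 in the left panel and Fgf13cko 2 in the right, 1 point per gene-end region, with regions that rose in red and those that fell in blue. In the left panel the points drop as regions get narrower, with a median of -2.10 up to 400 bp and 0.30 over 1200 bp, and the point near -7 is Lars2, while the medians of the right panel lie between 0.02 and 0.12.

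In 21 gene-end regions, all between 253 and 600 bp wide, Fgf13cko 1 was more than 4-fold below Fgf13cko 2, and in 0 it was more than 4-fold above. The controls differed by over 4-fold in 0 gene-end regions. Lars2 encodes the mitochondrial leucyl-tRNA synthetase. Its region (chr9:123461788-123462199, 412 bp wide), the 3' UTR region with the highest mean normalised count, was among these 21. It held 620 and 615 normalised tags in control 1 and 2, 4.58 in Fgf13cko 1 and 570 in Fgf13cko 2. The raw tags were 633, 727.5, 4 and 540.5. The fitted log2 fold change of -1.10 (SE 1.52, edgeR adjusted p = 0.743) did not pass, and Fgf13cko 2 lay close to both controls. The region of Tsc22d4, a gene for a leucine zipper transcription regulator, had 308, 258, 44.7 and 283. None of the 21 regions passed the test.

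With edgeR's quasi-likelihood test (adjusted p below 0.05 over all regions), 37 gene-end regions rose in Fgf13cko and 11 fell, of 557 that passed the filter on low counts. That is 6.64% and 1.97% of them. The shares in the whole table of 28801 tested regions were 6.2% risen and 1.64% fallen, 7.84% in either direction, so gene ends changed at close to the rate of the whole table and nothing particular to them follows from these counts. At an unadjusted p below 0.05 there were 119. The median log2 fold change was 0.00 at gene ends and -0.00 over all regions. Both Fgf13cko values lay above both controls in 166 gene-end regions (29.8%, against 28.5% of all regions) and below both in 146 (26.2%, against 25.2%), and in 245 the groups overlapped. Among TTS regions 23 of 382 rose and 9 fell, with a median of -0.06, and among 3' UTR regions 14 of 175 rose and 2 fell, with a median of 0.10. The difference between these classes was not tested.

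**Figure D2:**
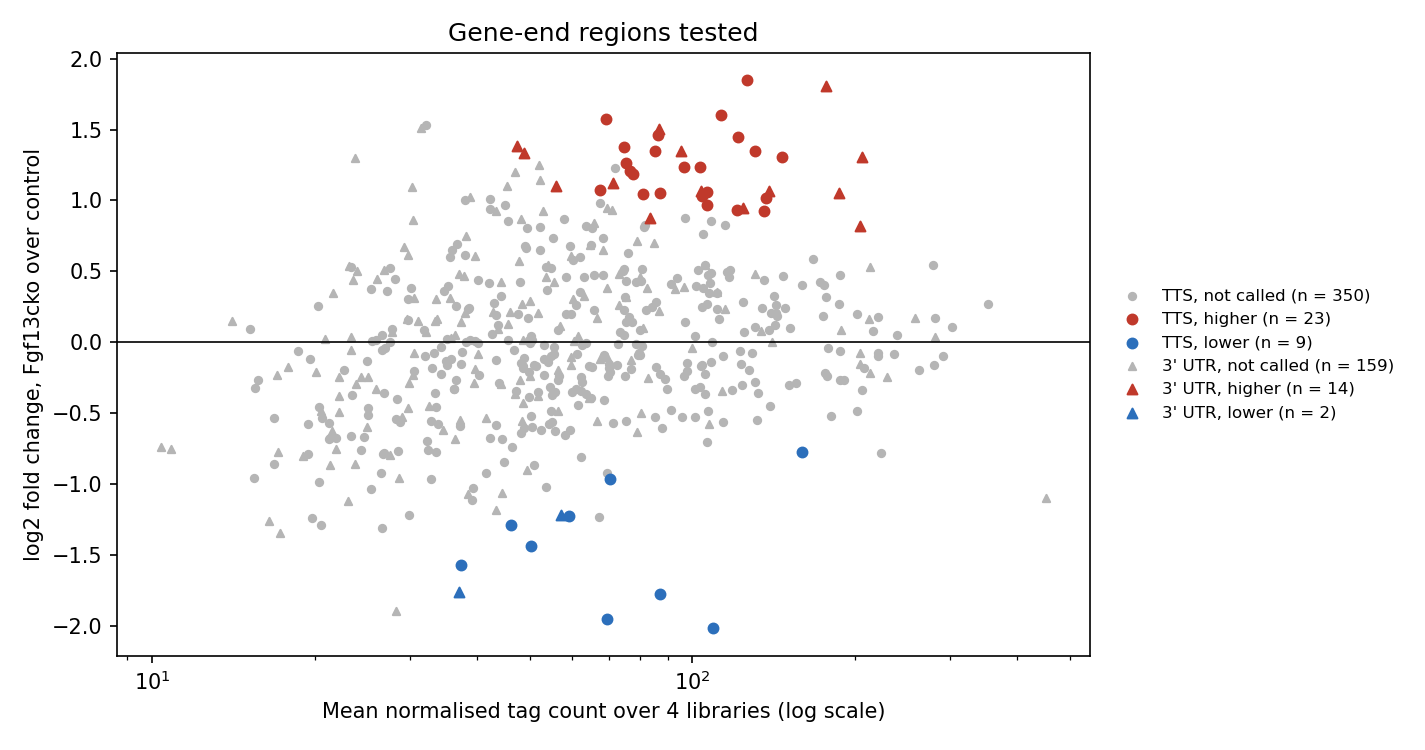
Log2 fold change, Fgf13cko over control (vertical axis), against the mean normalised tag count (horizontal log axis) of the 557 tested gene-end regions, 1 point per region. The 37 regions that rose lie between 0.82 and 1.85 and the 11 that fell between -2.01 and -0.77, and most points lie around 0.

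The regions that rose went from control means of 26.2 to 148 normalised tags to Fgf13cko means of 68.8 to 294, with a median log2 fold change of 1.21. The largest rise was at the end of Agbl4 (chr4:111663511-111664467, TTS), which encodes an enzyme that trims glutamates from tubulin tails. It had 45.0 and 64.7 normalised tags in control 1 and 2 and 206 and 189 in Fgf13cko 1 and 2 (log2 fold change 1.85, SE 0.23, adjusted p = 0.00445). Both Fgf13cko libraries were far above both controls, and the nearest start, that of Spata6, was 56.0 kb away. In the 3' UTR of Cyb5rl (chr4:107084401-107085270), a cytochrome b5 reductase relative, the counts were 89.6 and 67.6 in controls and 289 and 261 in Fgf13cko (1.81, SE 0.21, adjusted p = 0.00406). At the end of Camk1 (chr6:113332740-113333739), a calcium and calmodulin-dependent kinase gene, 49.5 and 62.1 became 193 and 149 (1.60, SE 0.23, adjusted p = 0.00653). In the 3' UTR of Tubb1 (chr2:174457757-174458770), the platelet beta-tubulin gene, they were 41.1 and 49.5 against 151 and 106 (1.50, SE 0.26, adjusted p = 0.0116). In these 3 regions, too, the groups were separate by more than the gap within either group. In edgeR, Cyb5rl did not pass without control 2 (adjusted p = 0.0592), Camk1 without control 1 (0.0529) or Tubb1 without control 1 or 2 (0.0768 and 0.0651).

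Of the 10 largest rises 5 more follow here, and that at Mir1936 is given with the microRNA genes. The end of Ttyh3, a tweety-family membrane protein gene, held 49.5 and 43.1 normalised tags in controls and 140 and 113 in Fgf13cko (a log2 fold change of 1.46, SE 0.23). The end of Fhl3, a LIM-domain protein gene, held 62.2 and 68.0 against 191 and 164 (1.44, SE 0.20). The end of Crat, the carnitine acetyltransferase gene, held 46.0 and 37.2 against 121 and 95.4 (1.38, SE 0.25). All 3 lie at a TTS and have adjusted p-values of 0.00865, 0.00589 and 0.0149. In the 3' UTR of Sowahb, an ankyrin repeat protein gene, 27.4 and 24.9 became 59.0 and 78.5 (1.38, SE 0.31, adjusted p = 0.0294). In the 3' UTR of Atf6, a transcription factor of the endoplasmic reticulum stress response, 54.8 and 52.8 became 91.7 and 182 (1.35, SE 0.32, adjusted p = 0.0374). Here the Fgf13cko libraries differed more from each other than Fgf13cko 1 did from the controls. The Atf6 call was lost with a loess offset (adjusted p = 0.0694), with a mean of at least 50 tags (0.0614) and without control 1 or 2 (0.167 and 0.238), and the value ranged from 0.77 to 1.73 when 1 library was left out. Sowahb did not pass in DESeq2 (adjusted p = 0.0867), and in edgeR without control 1 or 2 neither Sowahb (0.193 and 0.264), Fhl3 (0.0555 and 0.0626) nor Crat (0.0598 and 0.167) passed. Ttyh3 did not pass without control 2 (0.102).

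The 11 regions that fell all lay at protein-coding genes, with a median log2 fold change of -1.43. The largest fall was at the end of Serpinf2 (chr11:75431275-75431923, TTS), which encodes the plasmin inhibitor alpha-2-antiplasmin. It held 192 and 158 normalised tags in control 1 and 2 and 37.8 and 49.0 in Fgf13cko 1 and 2 (log2 fold change -2.01, SE 0.23, adjusted p = 0.00385). The end of Lin52 (chr12:84532207-84532846), a subunit gene of the MuvB cell cycle complex, held 107 and 115 against 31.5 and 24.8 (-1.95, SE 0.25, adjusted p = 0.00483). The end of Fech, which encodes the last enzyme of haem synthesis, held 135 and 135 against 35.5 and 43.2 (-1.77, SE 0.22, adjusted p = 0.00459). In each of these 3 both Fgf13cko values lay well below both controls and near each other. In the 3' UTR of Arrb1 (chr7:99603702-99604352), the beta-arrestin 1 gene, 53.9 and 60.9 became 10.3 and 22.7 (-1.76, SE 0.43, adjusted p = 0.0406). In edgeR, Arrb1 did not pass without control 1 or 2 (adjusted p = 0.256 and 0.463), nor Lin52 without control 2 (0.0547).

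Smaller falls were seen at 6 further gene ends, and the last of the 11, at Trp53, is given with the gene lists. The end of Spata13 held 52.4 and 58.3 normalised tags in controls and 21.2 and 17.4 in Fgf13cko (a log2 fold change of -1.57). The end of Lmf1, a lipase maturation factor gene of the endoplasmic reticulum, held 85.7 and 60.4 against 35.0 and 20.0 (-1.43). A TTS region in Amph, which encodes the synaptic vesicle endocytosis protein amphiphysin, held 64.1 and 66.8 against 22.9 and 30.6 (-1.29). Rpn1, an oligosaccharyltransferase subunit gene, had 89.1 and 76.9 against 27.5 and 43.2 at its end (-1.22). H6pd, the hexose-6-phosphate dehydrogenase gene of the endoplasmic reticulum, had 84.7 and 74.8 against 35.0 and 34.3 in its 3' UTR (-1.22). Kazald1, a gene for a secreted Kazal-domain protein, had 88.6 and 97.6 against 49.3 and 45.9 at its end (-0.96). The adjusted p-values of these 6 regions lay between 0.0265 and 0.0432. In none did the groups overlap, which the rule for naming them required and which holds below both controls for 25.2% of all tested regions. None of the 6 passed in the DESeq2 Wald test (adjusted p = 0.0712 to 0.159) or in edgeR without either control (adjusted p = 0.147 to 0.492).

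**Figure D3:**
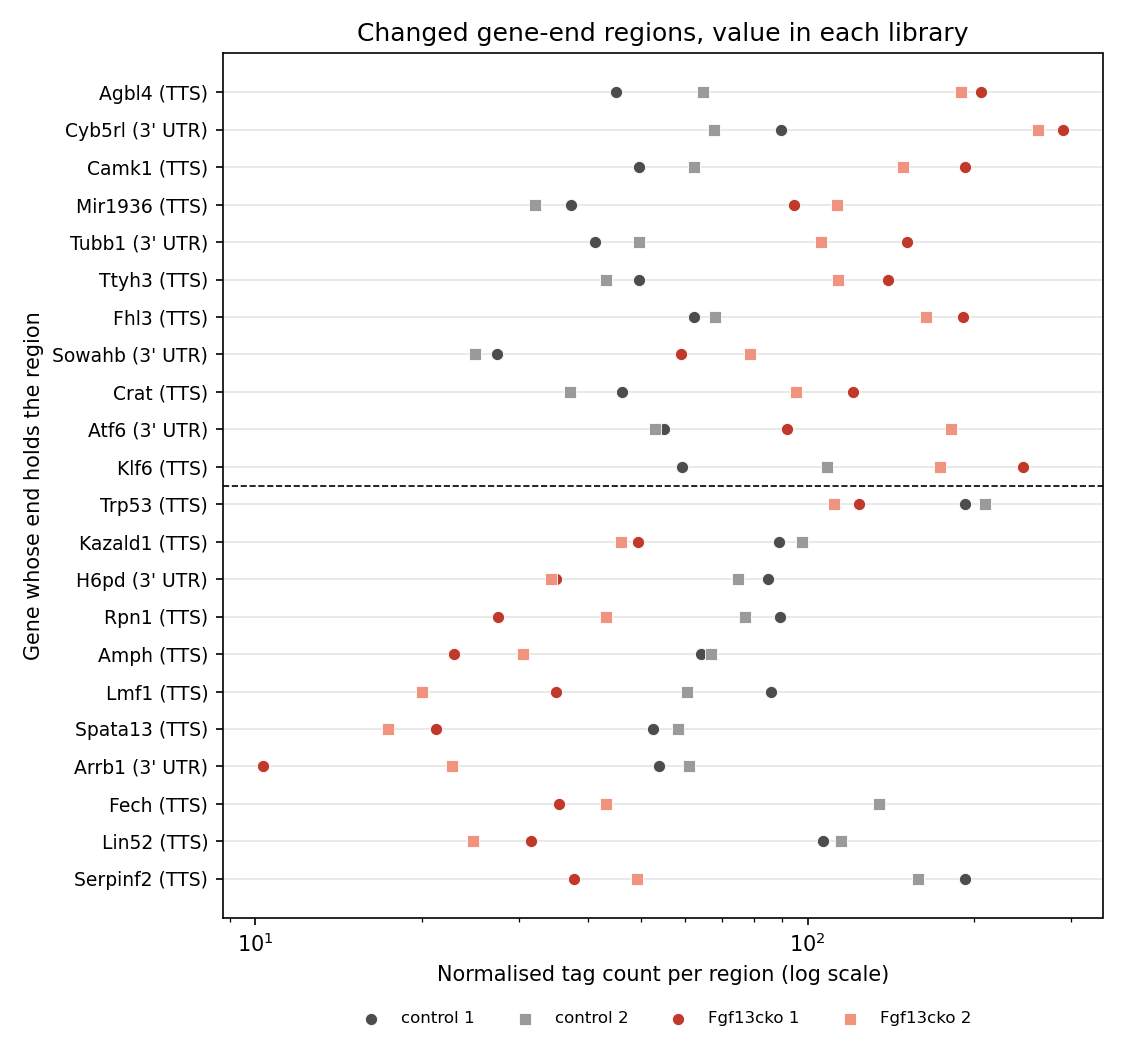
Normalised tag count on a log axis in each of the 4 libraries (points: control 1, control 2, Fgf13cko 1, Fgf13cko 2) for the named gene-end regions that changed, with rises above the dashed line and falls under it. Every Fgf13cko point lies on 1 side of both control points of its region, which the rule for naming the largest rises and falls required. At Fech the control points, both 135, coincide.

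The changed regions also differed in width, which bears on the library that stood apart and on the wider peaks of both Fgf13cko libraries. The 37 that rose had a median width of 997 bp and the 11 that fell 679 bp. By width class, 0, 0, 6, 22 and 9 regions rose and 0, 0, 9, 2 and 0 fell, from up to 400 bp to over 1200 bp. Without Fgf13cko 1, 89 gene-end regions rose and 32 fell, against 14.3% and 9.96% of all regions, and all 48 changed regions kept their call. Without Fgf13cko 2, 91 rose and 106 fell, against 17.7% and 17.3% of all regions, again with all 48 kept, so the rising share of calls went from 77.1% to 46.2%. Without either control the counts shrank, to 4 risen and 3 fallen without control 1 (1.44% and 0.24% of all regions) and to 3 and 2 without control 2 (0.667% and 0.111%). A fit with 1 library in a group assumes that this library varies like those of the other group, and the controls were closer to each other than the Fgf13cko libraries were. The regions of Agbl4, Serpinf2 and Fech passed in all 4 of these fits. With an offset on region width, chosen after the width dependence was seen, 90 rose and 51 fell (15.0% and 13.1% of all regions), and all 48 kept their call. The DESeq2 Wald test gave an adjusted p for 407 gene-end regions and for 22100 of all regions. Of these gene ends 21 rose and 3 fell (5.36% and 1.44% of all regions with a value). With library size as the only scaling 315 rose and 3 fell (61.3% and 0.208% of all regions), where mitochondrial tags enter the scale.

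Changes lay away from start sites. Of 130 gene-end regions within 1 kb of a start site, 1 rose and 0 fell, where 1.33% and 0.725% of all regions in that class did. Between 1 and 10 kb, 14 of 197 rose and 4 fell (all regions 7.27% and 1.86%), and beyond 10 kb 22 of 230 rose and 7 fell (9.94% and 2.33%). The gene ends thus followed the table as a whole in each distance class. Among 105 gene-end regions that lay within 1 kb of the start of another gene, such as those of Tmem129 and Ss18l1, 0 rose and 0 fell in edgeR, and 9 had an unadjusted p below 0.05. These also held more tags, with a median of 85.7 normalised tags per region against 56.3 at all gene ends. They were wider too, with a median of 954 bp against 761 bp. Leaving out the regions within 1 kb of a start left 36 risen and 11 fallen.

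**Figure D4:**
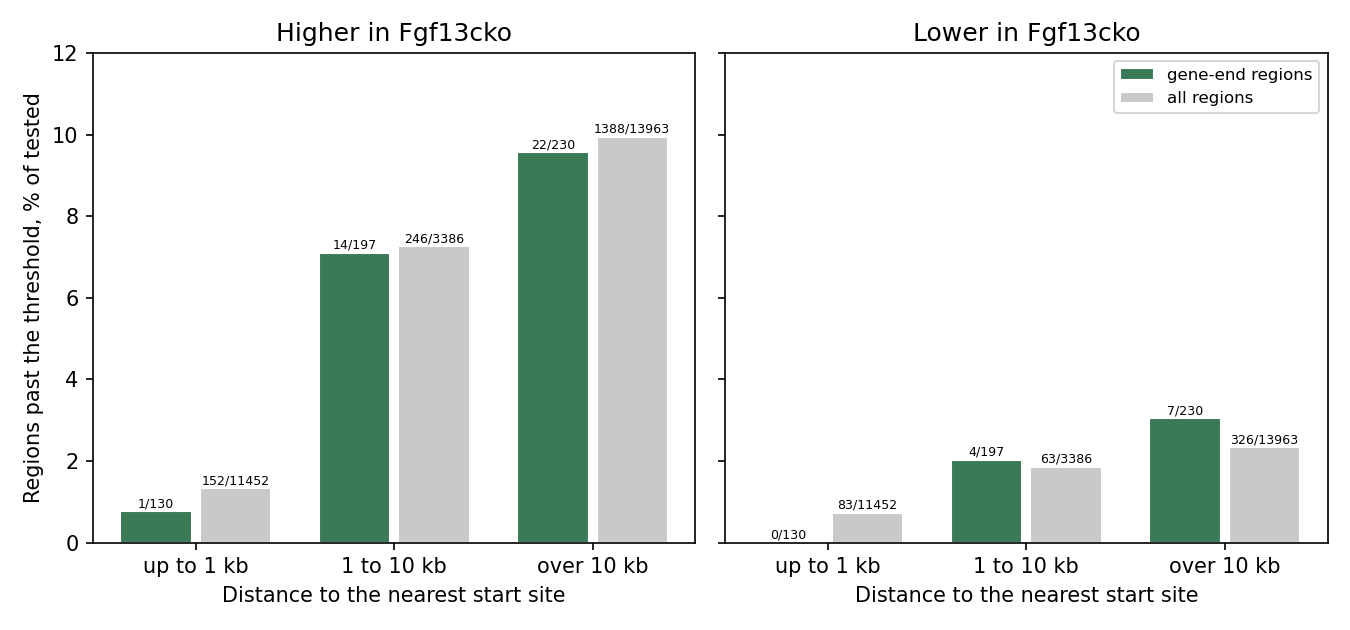
Percent of tested regions past the threshold (vertical axis from 0, left panel higher and right panel lower in Fgf13cko) by distance to the nearest start site, for gene-end regions and for all regions, with the counts above each bar. Both sets rise least within 1 kb of a start (1 of 130 gene ends, 1.33% of all regions) and most beyond 10 kb (22 of 230, 9.94%).

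Starts and ends of the same gene could be set side by side for part of the regions. For 284 gene-end regions the table also held a promoter region of the same gene. This was the region with the highest mean normalised count, other than gene ends, within 1 kb of a start of that gene. Of 34 changed end regions among them, 26 risen and 8 fallen, the promoter passed for 1. Over all 7179 tested promoter regions 1.16% rose and 0.919% fell, so this count is near the background. The gene was Fhl3, whose promoter region went from 41.6 and 44.4 normalised tags in controls to 99.7 and 76.4 in Fgf13cko (a log2 fold change of 1.04, adjusted p = 0.0441). At the 26 risen ends the median log2 fold change was 1.20, and at their promoters -0.03. At the 8 fallen ends it was -1.36, and at their promoters 0.06. The promoters of 11 of the 26 were higher in Fgf13cko, and those of 3 of the 8 were lower. Across all 284 pairs, which share the same 4 libraries, Pearson's r between end and promoter log2 fold changes was 0.11 and Spearman's rho 0.10, given as a description. Of the promoter regions in the 284 pairs 3 rose and 4 fell, also near the background within 1 kb of a start. At 6 of these 7 genes the end did not pass, where 7.84% of all regions passed in either direction.

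Junb, an AP-1 transcription factor gene, and Zfp36, which encodes an RNA-binding protein that destabilises messages with AU-rich elements, were among those 6. The Junb promoter region held 217 and 168 normalised tags in controls and 104 and 97.0 in Fgf13cko (a log2 fold change of -0.94, adjusted p = 0.0287). The end of Junb (chr8:84975868-84977608), 2.01 kb from the start, held 284 and 318 against 343 and 220 (-0.10, SE 0.24, adjusted p = 0.858), and its groups overlapped. At Zfp36 the promoter region had 113 and 102 against 43.5 and 56.4 (-1.09, adjusted p = 0.0272), and the end had 121 and 128 against 85.4 and 93.8 (-0.48, SE 0.20, adjusted p = 0.182). The difference between start and end within a gene was not tested. The promoters of Ccdc190 (-1.61) and of Creb3l2 (-0.85), a gene for a membrane-bound transcription factor, fell, and those of Pacs2 (0.75), which encodes a sorting protein, and Lmcd1 (0.93), a LIM-domain gene, rose. Their ends had 0.17, 0.29, 0.47 and -0.62 in that order, with adjusted p-values of 0.770, 0.426, 0.186 and 0.207.

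**Figure D5:**
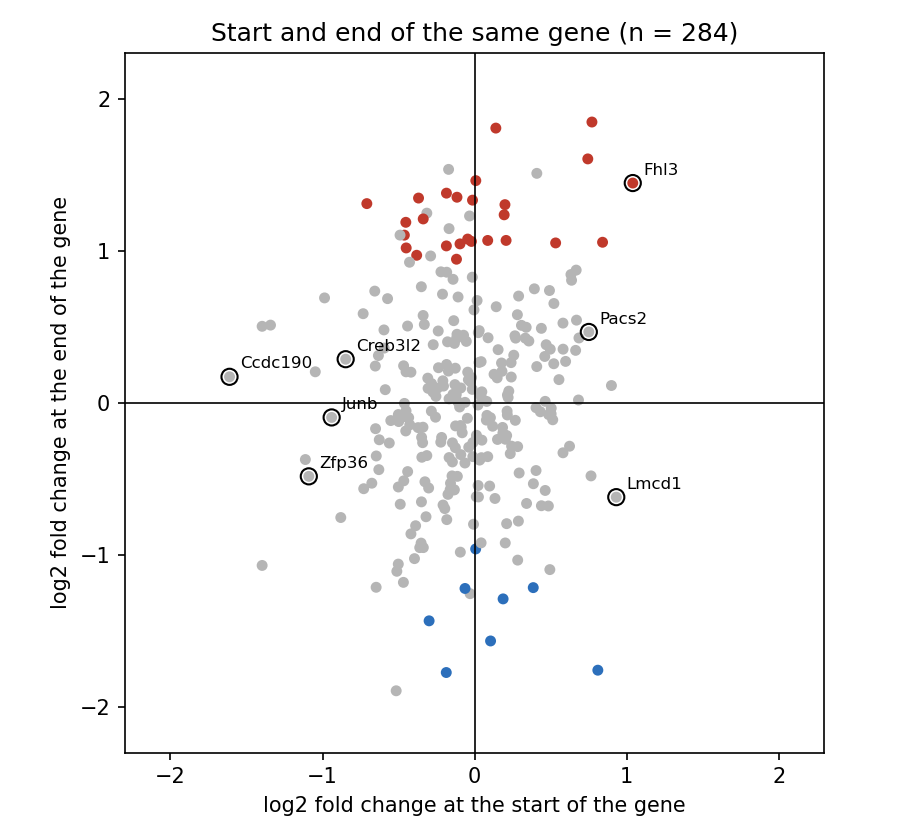
Log2 fold change of the gene-end region (vertical axis) against that of the promoter region of the same gene (horizontal axis) for 284 pairs, 1 point per pair, Fgf13cko over control. Fhl3 is the 1 gene with both past the threshold, and the other 33 changed ends have promoters that did not pass.

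None of the 10 gene ends named here for the highest mean normalised counts of their class passed the test. These counts are per region and were not divided by width. Of all tested regions 7.84% passed in either direction, so none of 10 is near that rate and nothing particular to them follows. By mean normalised count the highest TTS regions were those of Camta2, a calmodulin-binding transcription activator gene, Sox6os, a long non-coding RNA antisense to Sox6, Junb, Mir5130 and Tmem129. The Camta2 region (chr11:70668478-70670056) held 285, 355, 437 and 336 normalised tags in control 1 and 2 and Fgf13cko 1 and 2 (log2 fold change 0.27, adjusted p = 0.519). Its groups overlapped, and the start of Spag7 was 149 bp from its centre. The Sox6os region, at 3001 bp among the widest, held 283, 298, 354 and 275 (0.11, adjusted p = 0.794), and the Tmem129 region, which holds the Slbp promoter shown above, 308, 285, 282 and 248 (-0.16, adjusted p = 0.669). After Lars2, the highest 3' UTR regions were those of Rprm, a p53-induced cell cycle inhibitor gene, Dclk2, a doublecortin-like kinase gene, Sox12, a SoxC transcription factor gene, and Kcna2, a potassium channel gene. Rprm had 264, 291, 304 and 265 (0.03), Dclk2 243, 244, 322 and 225 (0.17), Sox12 228, 268, 244 and 177 (-0.24), and Kcna2 237, 222, 222 and 172 (-0.22). The adjusted p-values of the 10 were 0.519 to 0.937, and the value of Lars2 had the SE of 1.52 given above.

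Among microRNA genes, 1 of 24 tested end regions rose and 0 fell, where 6.2% and 1.64% of all regions did. A hairpin position was matched for 22 of the 25, and in 14 the hairpin lay within the region. The region at Mir1936 (chr12:102683811-102684533) held 37.2 and 32.1 normalised tags in controls and 94.5 and 113 in Fgf13cko (a log2 fold change of 1.58, SE 0.25, adjusted p = 0.00887), and the hairpin lay 395 bp outside it. It did not pass in edgeR without control 2 (adjusted p = 0.102). It is the 1 changed gene end within 1 kb of an annotated start site. That start is the edge of the Mir1936 hairpin itself (chr12:102684928-102685020), which need not be where transcription starts. The region that holds Mir128-2, 1 of the genes of the neuronal miR-128, had 66.6 and 86.6 against 159 and 121 (0.86, SE 0.23, adjusted p = 0.0598) and did not pass. Its Fgf13cko values both lay above the controls. Next to Mir9-2, a gene of miR-9, which acts in neural progenitor differentiation, the counts were 83.2 and 101 against 138 and 110 (0.42, SE 0.22, adjusted p = 0.293). Next to Mir148b they were 45.5 and 53.3 against 65.3 and 83.8 (0.60, SE 0.26, adjusted p = 0.213). The microRNA ends with the highest normalised counts, at Mir5130 and Mir1945, had 0.17 and -0.20 (adjusted p = 0.658 and 0.611). The Mir1945 region also holds the promoter window of Gspt1. Those of Mir8114, Mir1956, Mir5131, Mir8101 and Mir8092 hold promoter windows of Glul, Eif4e, Ddhd1, Hdac5 and Zfp518a, in that order. Counts in such regions cannot be assigned to the microRNA gene rather than to the promoter.

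Of 543 genes on 24 lists of cell-type markers and pathways, 19 (3.50%) had a gene-end region, against 486 (2.22%) of 21900 protein-coding genes, and the difference between these shares was not tested. They came from 12 lists, and among them 1 rose and 1 fell (6.2% and 1.64% of all regions), with a median log2 fold change of -0.10 against -0.00 over all regions. The stem cell, intermediate progenitor, synaptic, GABAergic, astrocyte, microglial, endothelial, meningeal, BMP, polyadenylation, RNA-binding and homeobox lists had 0 such regions each. In the immediate early and stress list (3 of 30 genes), the end of Klf6, a zinc finger transcription factor gene, rose (chr13:5869485-5871228). It held 59.2 and 108 normalised tags in controls and 245 and 173 in Fgf13cko (1.31, SE 0.30, adjusted p = 0.0321), and without control 1 it did not pass (0.95, adjusted p = 0.266). The promoter region of Klf6 had 384 and 407 against 313 and 172 (-0.71, adjusted p = 0.160). In the apoptosis and p53 list (4 of 25 genes), the end of Trp53, the p53 gene, fell (chr11:69591960-69592773), from 193 and 210 to 124 and 112 (-0.77, SE 0.18, adjusted p = 0.0385). It did not pass in DESeq2 (adjusted p = 0.0806) or without either control (adjusted p = 0.264 and 0.420), and with library size as the only scaling its log2 fold change was 0.19. That scaling moved the median log2 fold change of all gene ends to 0.965, so 0.19 is below the common shift. In the main fit Bad, a pro-apoptotic Bcl-2 family gene, had 0.16 in its 3' UTR, and Sesn1, a p53 target, -0.23 at its end.

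The members of the other lists named here did not pass. In the oligodendrocyte list (2 of 18 genes), the 3' UTR region of the myelin basic protein gene Mbp held 30.8, 18.6, 2.29 and 17.4 normalised tags in control 1 and 2 and Fgf13cko 1 and 2 (log2 fold change -1.34, SE 0.83, adjusted p = 0.387). That region is 318 bp wide and its low value is in the library that stood apart. The myelin enzyme gene Cnp had -0.20. In the Notch list (2 of 25), Dtx1, a ubiquitin ligase of the pathway, had 61.7 and 41.4 against 77.4 and 93.3 (0.73, adjusted p = 0.149), and the target gene Heyl had 95.0 and 94.3 against 26.9 and 105 (-0.50, adjusted p = 0.620), with the low value again in Fgf13cko 1 and a width of 572 bp. Stmn1, the tubulin-binding stathmin gene, had 61.7 and 96.4 against 32.7 and 58.0 (-0.81, adjusted p = 0.207). Fgf11, a close relative of Fgf13, had 81.3 and 75.2 against 48.1 and 70.1 at its end (-0.41, adjusted p = 0.406). Foxj1, the regulator of motile cilia, had -0.10, the ligand gene Wnt8b -0.12, the cell cycle kinase gene Cdk6 0.15, the BAF subunit genes Dpf3 and Ss18l1 0.43 and 0.14, and the ribosomal protein gene Rps18 0.53.

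Some genes had more than 1 gene-end region. Cdk5rap2, Gnaq, Mindy4 and Tmem44 had 2 gene-end regions each, and none of these 8 passed. The pairs at Cdk5rap2 (-0.08 and -0.55) and Mindy4 (-0.45 and -0.03) had equal signs, and those at Tmem44 and Gnaq had opposite ones. At Tmem44 the 3' UTR region had 32.3 and 29.6 normalised tags in controls and 54.4 and 91.7 in Fgf13cko (a log2 fold change of 1.25, adjusted p = 0.0547), and the TTS region 73.4 and 50.7 against 60.2 and 38.5 (-0.35, adjusted p = 0.585). At Gnaq, a G protein alpha subunit gene, the 2 regions of the 3' UTR had -1.07 and 0.50 (adjusted p = 0.135 and 0.620). Another region that rose lay within 50 kb of 7 of the 37 risen gene ends (18.9%), and of 53 of the 509 that did not change (10.4%). Another that fell lay within 50 kb of 1 of the 11 fallen ends (9.09%) and of 19 of the 509 (3.73%). These shares were not tested. The 37 risen regions were spread over 14 chromosomes and the 11 fallen over 10.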

How the data were processed

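The authors deposited estimated counts for 29121 merged regions, which per the file headers are raw tags that HOMER's annotatePeaks.pl assigned on mm10 without normalisation, together with its annotation. Every deposited count is a multiple of 0.5. Bowtie2, HOMER, MACS2, Picard and DESeq2 are listed, without roles, in the submitters' processing notes. Versions, the handling of duplicates and any read shift were not given in the sources used here. In the deposited peak lists the fold enrichment (a ratio), the score and the -log10 p of each peak are the authors' own. Of these, only the fold enrichment was used, to describe peaks.

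Counts were rounded to whole numbers and tested over all regions with edgeR 4.0.16 in R 4.3.3 (glmQLFit, robust, and glmQLFTest, two-sided), with TMM scaling, filterByExpr and Benjamini-Hochberg adjustment at 0.05, on all 4 libraries without covariates. The procedure was first tested on simulated data. There all libraries had the same spread and no dependence on region width, so the simulation does not cover the width dependence seen here. SE is the size of the log2 fold change over the square root of F, and the common biological coefficient of variation was 0.191. Raw tags divided by the relative effective library size gave normalised tags. Total tags were 24.9 and 26.0 M in control 1 and 2 and 16.8 and 13.1 M in Fgf13cko 1 and 2, and the median gene-end region held 56.5, 62.5, 47.5 and 57 tags. Groups come from the sample titles. The gene-end regions and the gene lists were chosen with earlier results of these data known. Named are the 10 largest rises and 10 largest falls past the threshold with groups apart (each gene once, predicted genes skipped), the 5 highest TTS and 5 highest 3' UTR regions, up to 4 members of each list by smallest p, ends of Fgf13 and Arid1b (of which there were none), and changed regions of genes with 2 changed ends (none). A region that this rule names is not reported here. Other names in the text, among them Tsc22d4, the microRNA genes, the genes with 2 end regions and those with changed promoters, were chosen after their values were seen. The alternatives were other scalings, filters, DESeq2 1.42.0, a replicate block and leaving out each library. An offset on region width (loess) and a block with crossed numbers were added after the data were seen. Sequences are from RefSeq tables of GRCm38.p6, whose chromosome coordinates mm10 shares; those of the regions themselves were not analysed here.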

Additional observations from a re-analysis of the deposited data

How the results depend on the processing

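Of 37 risen and 11 fallen gene ends, 20 and 3 passed under every alternative other than leaving out a library, and 1 and 2 passed without each library in turn. Size factors by RLE, TMM without mitochondrial regions, a loess offset on abundance, no filter, a mean of at least 50 tags and regions over 1 kb from a start gave 35 to 42 risen and 10 to 15 fallen, with 1651 (5.73%) to 2079 (7.22%) of all regions risen and 481 (1.65%) to 1144 (3.97%) fallen where only the scaling changed or the filter was dropped. With the mean of at least 50 tags 10.9% and 4.65% of the regions tested passed. The rising share was 77.1% and with the loess offset 73.7%. DESeq2 gave 21 and 3 of the 407 gene ends with an adjusted p, and 13 of 21 named changed regions with a value kept their call. With the offset on width 90 rose and 51 fell (rising share 63.8%). With library size only, 315 rose and 3 fell, and the median log2 fold change moved to 0.965. Leaving out 1 library at a time, 3 to 91 rose and 2 to 106 fell. With the replicate number as a block 46 rose and 14 fell (2105 and 703 of all regions, 7.31% and 2.44%), and it changed no call of a named region. The labels do not say that equal numbers share a litter or day, and with 2 pairs the numbers are not shown to pair. The differences between replicates correlated at -0.24 over 28801 regions. With crossed numbers, added after this was seen, 53 rose and 18 fell (9.35% and 3.9% of all regions).

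With library size only, where 0.965 is the common shift, the log2 fold change changed sign at Kazald1 (0.0033), Junb (0.85), Tmem129 (0.80), Sox12 (0.71), Kcna2 (0.74), Stmn1 (0.18), Cnp (0.77), Foxj1 (0.86), Heyl (0.51), Wnt8b (0.83), Fgf11 (0.57), Zfp36 (0.49), Trp53 (0.19) and Sesn1 (0.73). The width offset reversed Sox6os (-0.056), Mir5130 (-0.0093), Rprm (-0.14) and Bad (-0.015), and Rprm was also reversed by the loess offset (-0.0091) and by a mean of at least 50 tags (-0.032). Over the fits that leave out 1 library, values spanned -0.11 to 0.28 at Sox6os, -0.48 to 0.18 at Junb, -0.0069 to 0.30 at Mir5130, -0.092 to 0.12 at Rprm, -0.13 to 0.40 at Dclk2, -0.28 to 0.06 at Foxj1, -1.79 to 0.13 at Heyl, -0.36 to 0.15 at Wnt8b, -0.10 to 0.77 at Dpf3, -0.36 to 0.50 at Cdk6, -0.0004 to 0.28 at Bad and -0.50 to 0.12 at Sesn1. None of these had passed the test except Kazald1 and Trp53. The causes were not tested. The median gene end held 47.5 to 62.5 tags, and the smallest change that these libraries could show was not measured.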
